A study of Mus musculus with 4 samples.

Results

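In all, 8 genes that build the pre-T-cell receptor or cut and join its gene segments were followed through the GSI washout in Beko cells, a mouse leukemic progenitor T-cell line in which Notch is constitutively active. They are *Ptcra*, *Cd3d*, *Cd3e*, *Cd3g*, *Cd247*, *Rag1*, *Rag2* and *Dntt*, picked by symbol from the 24391 genes of the count table. All 8 were found, and all 8 were among the 12266 genes with enough reads to be tested. Of the 4 RNA-Seq libraries, 2 came from cells treated for 48 h with the γ-secretase inhibitor DAPT (GSI), which blocks the cleavage that releases the active Notch1 fragment. The other 2 came from cells that received the same treatment, were washed and then grown for 24 h in its absence (washout). The inhibitor was renewed at 24 h, per the methods. The labels give the dose as 10 mg/ml and the methods as 10 μg/ml. All libraries are from the same cell line, none is from untreated cells, and the washed cells were cultured longer, so that the end of inhibition and the longer culture cannot be told apart. Nothing in the labels says that replicates were separate cultures, hence p-values measure only the spread between these libraries.

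A T-cell progenitor assembles its receptor in steps. The RAG recombinase, made of the Rag1 and Rag2 proteins, cuts next to the variable, diversity and joining segments, end-joining factors seal the breaks, and terminal deoxynucleotidyl transferase, encoded by *Dntt*, adds untemplated bases at the joints. A successful β chain pairs with the invariant pre-TCRα chain, encoded by *Ptcra*, and with the CD3 γ, δ and ε chains and the ζ chain (*Cd247*), which carry the signal into the cell. *Ptcra* is a classical Notch target of thymocytes, and E proteins, Ikaros and Runx factors are known to act on several of these loci.

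The total counts of the libraries lay between 13716199 and 36364200. A count of 3, taken as the limit of detection, corresponded to 0.0881 to 0.223 CPM (counts per library size, scaled by TMM factors), and the 8 genes lay far above it. Libraries of one condition correlated at 0.988 or more in log2 CPM, libraries of different conditions at 0.947 or less. Markers fixed for T-cell progenitors were all detected, among them *Thy1*, *Cd44*, *Cd24a* and *Kit*, but *Il2ra* was low under GSI, at 1.44 and 1.51 CPM. The B-lineage factors *Pax5* and *Ebf1* had no read in any library, while *Vpreb3* of the same list had 16 and 7 counts under GSI. Of 9 myeloid and mast cell markers, 3 had no reads, yet *Cpa3* had 176 and 77.4 CPM and *Itgam* 48.7 and 37.9 CPM under GSI. Of the genes tested, 7.74% were higher and 11.7% were lower upon washout past both thresholds of the study, 0.05 for the adjusted p-value and 1 for the size of the log2 fold change. At the adjusted p-value alone, the shares were 27.0% and 25.4%. Both washout libraries lay above both GSI libraries for 38.2% of genes and below them for 39.1%, so that groups without overlap are common in these data. With the total count in place of TMM factors, all log2 fold changes shifted by about -0.20, and the genes past both thresholds went from 950 higher and 1437 lower to 586 and 1963.

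The 8 genes did not move together. Past both thresholds, 1 was higher (*Ptcra*) and 1 was lower (*Dntt*), beside 7.74% and 11.7% of all genes. At the adjusted p-value alone, 3 were higher (*Ptcra*, *Cd3g* and *Rag2*), 2 were lower (*Dntt* and *Cd247*), and *Cd3d*, *Cd3e* and *Rag1* did not pass. The shares of all genes there were 27.0% higher and 25.4% lower, and 8 genes are too few to tell such counts from these shares. Their median log2 fold change was 0.25, against -0.01 over all genes tested. Summed over the 8 genes, the level was 4027 and 4716 CPM under GSI, against 4233 and 4197 CPM upon washout, and the groups overlapped. Most of each sum came from *Rag1* and *Dntt*, whose log2 fold changes were 0.37 and -1.62, so it says little about the other genes.

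**Figure D1:**
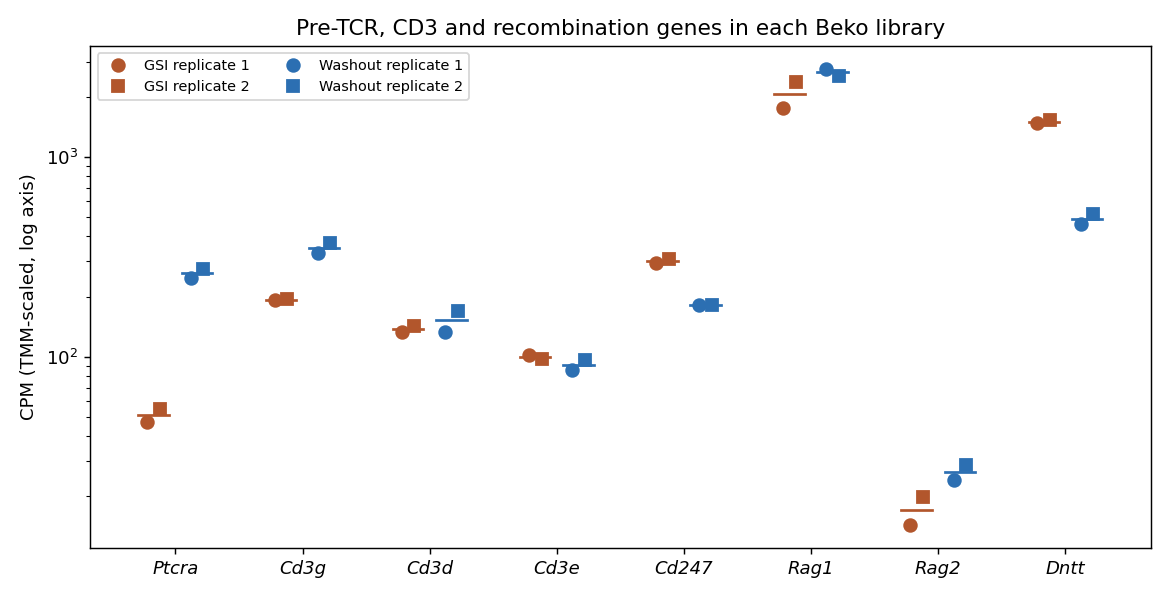
Level of each of the 8 genes in each library, in CPM on a log axis, with circles for replicate 1, squares for replicate 2 and short lines for the mean of each condition. The washout libraries lie above the GSI libraries for Ptcra and below them for Dntt with a wide gap, while Cd3d overlaps and Cd3e nearly touches.

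*Ptcra* showed the largest change of the 8. It had 47.1 and 54.4 CPM under GSI, against 249 and 276 CPM upon washout. Each washout library lay more than 4-fold above each GSI library, and the closest pair was 2.19 apart on the log2 scale, while replicates of one condition differed by 0.21 or less. The mean rose from 50.8 to 262 CPM, by 5.18-fold (log2 fold change 2.37 ± 0.12 SE, with adjusted p = 0.000281 by edgeR's quasi-likelihood test, n = 2 per condition). Only 0.424% of all genes tested had a higher log2 fold change. It remained past both thresholds in all 13 alternative fits, with values from 2.17 to 2.49. *Ptcra* lies on the minus strand of chromosome 17 from 46893176 to 46900542 (mm9) and overlaps *Gm16736* on the other strand without shared exon bases. The annotation used here gives it 600 bases of exon. Whether these hold its untranslated regions was not checked, and if they do not, its level per kilobase is set too high by an unknown amount.

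The 250 bases before the annotated start are shown for the genes whose changes differ most. They are from RefSeq (GRCm38.p6), written 5′ to 3′ on the gene's strand, and all 8 genes matched an entry. Capitals mark the RBPJ motif TGGGAA, whose letters are also read by Ikaros factors, and the E-box CANNTG, the site of E proteins. Both strands were searched, and all matches were on the gene's strand or palindromic in their fixed letters. TGGGAA is found in 21.6% of 32851 promoters of the same length, 2 or more times in 2.77%, and CANNTG in 66.2%, 2 or more times in 31.8%. *Ptcra* holds TGGGAA 2 times, at 84 to 79 and 32 to 27 bases before the start, on either side of 2 E-boxes that both read CAGCTG. *Dntt* holds 3 E-boxes and no TGGGAA. A match is a match of letters and no measurement of binding.
Ptcra (chr17:46763713-46763962, minus strand): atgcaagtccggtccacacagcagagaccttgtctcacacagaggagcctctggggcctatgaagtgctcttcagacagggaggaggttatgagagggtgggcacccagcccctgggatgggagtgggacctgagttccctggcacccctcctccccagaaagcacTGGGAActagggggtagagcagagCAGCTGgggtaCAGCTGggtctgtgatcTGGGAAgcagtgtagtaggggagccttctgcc
Dntt (chr19:41029025-41029274, plus strand): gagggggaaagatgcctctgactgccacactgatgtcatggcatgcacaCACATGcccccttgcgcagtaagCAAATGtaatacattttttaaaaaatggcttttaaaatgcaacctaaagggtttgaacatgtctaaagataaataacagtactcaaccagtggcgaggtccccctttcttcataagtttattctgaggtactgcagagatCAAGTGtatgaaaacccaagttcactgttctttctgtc

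*Dntt* moved the other way. Its level was 1479 and 1531 CPM under GSI, against 462 and 517 CPM upon washout. The GSI libraries were both about 3 times the washout libraries, with a closest gap of 1.52 on the log2 scale, and replicates differed by 0.16 or less. The mean fell from 1505 to 490 CPM, 3.07-fold lower (log2 fold change -1.62 ± 0.13 SE, with adjusted p = 0.000403 by the same test). In all 13 alternative fits it was past both thresholds, between -1.82 and -1.53, and 5.60% of genes had a lower value. *Dntt* lies on the plus strand of chromosome 19 from 41103765 to 41134013, overlaps no annotated gene, and has 12 introns of which 4 are longer than the 3000 bases that the alignment allowed for a spliced read. Per kilobase of exon, it ranked 63 and 66 of 10962 genes in the GSI libraries and 258 and 238 upon washout, so it was still a highly expressed gene 24 h after the inhibitor had been removed.

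**Figure D2:**
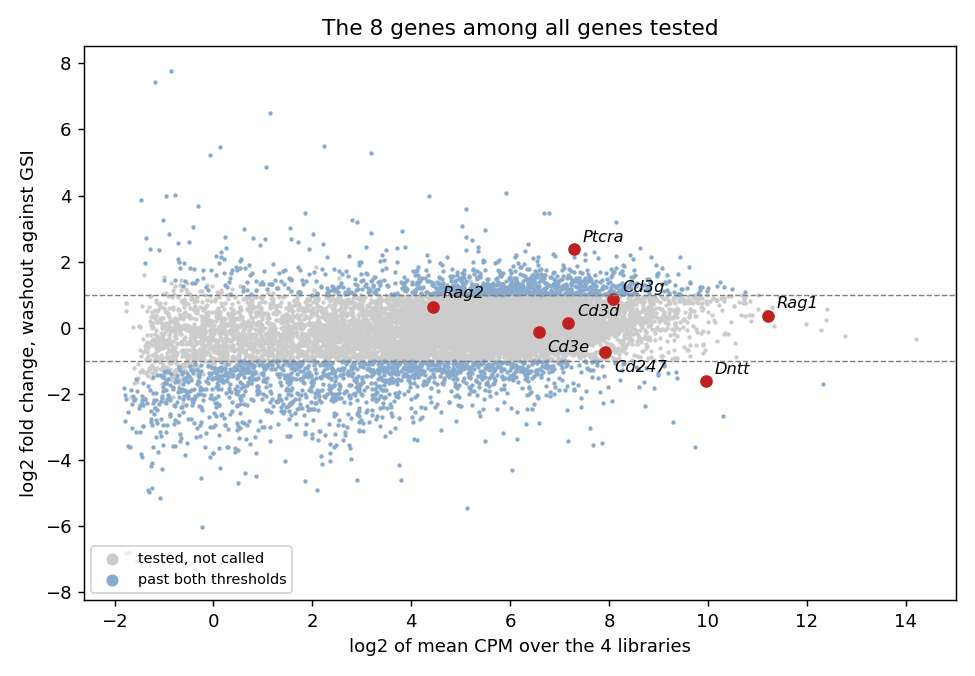
Log2 fold change upon washout against the log2 of the mean CPM over the 4 libraries for every gene tested, with the 8 genes in red, genes past both thresholds in blue and the thresholds dashed. Ptcra sits at 2.37 among the highest genes of its level, and Dntt at -1.62 among the lowest.

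The CD3 γ, δ and ε genes lie side by side on chromosome 9 within 40019 bases. *Cd3g* (44777655 to 44788514, minus strand) and *Cd3d* (44789876 to 44795135, plus strand) are transcribed away from each other from starts 1361 bases apart, and *Cd3e* (44806826 to 44817673, minus strand) ends 11690 bases beyond the end of *Cd3d*. Despite this arrangement, the 3 genes had different values. *Cd3g* had 192 and 194 CPM under GSI, against 331 and 371 CPM upon washout. Both washout libraries were higher, by at least 0.77 on the log2 scale. It rose 1.82-fold (log2 fold change 0.86 ± 0.10 SE, with adjusted p = 0.00122 by edgeR's quasi-likelihood test), under the fold threshold, and all alternative fits gave 0.66 to 0.95 with an adjusted p of 0.0115 or less.

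*Cd3d*, whose start faces that of *Cd3g*, had 133 and 142 CPM under GSI, against 134 and 170 CPM upon washout. The groups overlapped, since washout replicate 1 lay between the GSI libraries. Its log2 fold change was 0.14 (95% interval -0.19 to 0.47, adjusted p = 0.414 from the same test), and the sign turned with total-count scaling (-0.06) and without washout replicate 2 (-0.02). *Cd3e*, the chain that pairs with both γ and δ, had 102 and 97.3 CPM under GSI, against 86.2 and 96.4 CPM upon washout. The groups do not overlap, but GSI replicate 2 and washout replicate 2 nearly touch. Its log2 fold change was -0.13 (95% interval -0.37 to 0.11, adjusted p = 0.307 from the same test). The alternatives ranged from -0.33 to -0.05, and the adjusted p-value was 0.0313 with total-count scaling.

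The 250 bases before the starts of *Cd3g* and *Cd3d* are given because these neighbors differed in their change. In *Cd3g*, a TGGGAA overlaps an E-box, which gives 1 run of capitals, and 2 further E-boxes read CACCTG. The stretch of *Cd3d* holds 1 E-box of the same letters and no TGGGAA. *Cd3e*, not shown, holds 1 of each.
Cd3g (chr9:44980432-44980681, minus strand): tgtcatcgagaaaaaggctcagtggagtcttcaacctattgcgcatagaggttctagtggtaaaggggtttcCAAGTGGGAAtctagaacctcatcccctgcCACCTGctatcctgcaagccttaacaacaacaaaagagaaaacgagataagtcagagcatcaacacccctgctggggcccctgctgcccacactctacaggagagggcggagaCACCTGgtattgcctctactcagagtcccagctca
Cd3d (chr9:44981536-44981785, plus strand): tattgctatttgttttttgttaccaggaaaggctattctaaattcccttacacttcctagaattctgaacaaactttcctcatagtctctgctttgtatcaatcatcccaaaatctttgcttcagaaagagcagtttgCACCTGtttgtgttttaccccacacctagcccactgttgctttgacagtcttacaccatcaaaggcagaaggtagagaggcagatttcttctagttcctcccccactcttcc

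*Cd247* encodes the ζ chain, which carries most of the receptor's signaling motifs. Its counts gave 296 and 310 CPM under GSI, against 182 and 182 CPM upon washout. Replicates were nearly identical, and the groups lay 0.70 apart at their closest on the log2 scale. The gene fell to 0.60 of its GSI level (log2 fold change -0.73 ± 0.094 SE, with adjusted p = 0.00145 by the same test), under the fold threshold, with -0.93 to -0.69 over the alternatives and an adjusted p of 0.0107 or less in each. *Cd247* spans chromosome 1 from 167718812 to 167807407 on the plus strand, with an intron of 66279 bases. In the annotation used here 3005 of its exon bases are shared with *Pou2f1* on the other strand, and the strand setting of the authors' counting is not stated. *Pou2f1* had a log2 fold change of -0.56 (adjusted p = 0.0096), and its part in the value of *Cd247* was not tested.

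Ratios between genes within a library do not depend on how libraries are scaled. For each read on *Cd3e* there were 0.460 and 0.560 reads on *Ptcra* in the GSI libraries and 2.88 and 2.86 upon washout, a change of 5.67-fold. The ratio of *Cd3g* to *Cd3e* went from 1.88 and 1.99 to 3.84 and 3.85, or 1.99-fold. *Cd247* to *Cd3e* went from 2.89 and 3.19 to 2.11 and 1.89. In these 3 ratios the exact binomial 95% intervals, which cover counting error only, did not overlap between the conditions. The ratio of *Cd3d* to *Cd3e* was 1.30 and 1.46 in GSI and 1.55 and 1.76 upon washout, and here the intervals of GSI replicate 2 (1.37 to 1.57) and washout replicate 1 (1.48 to 1.62) overlapped. With 2 libraries per condition, an exact two-sided permutation test of a ratio cannot go below p = 0.333, and no test was made.

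**Figure D3:**
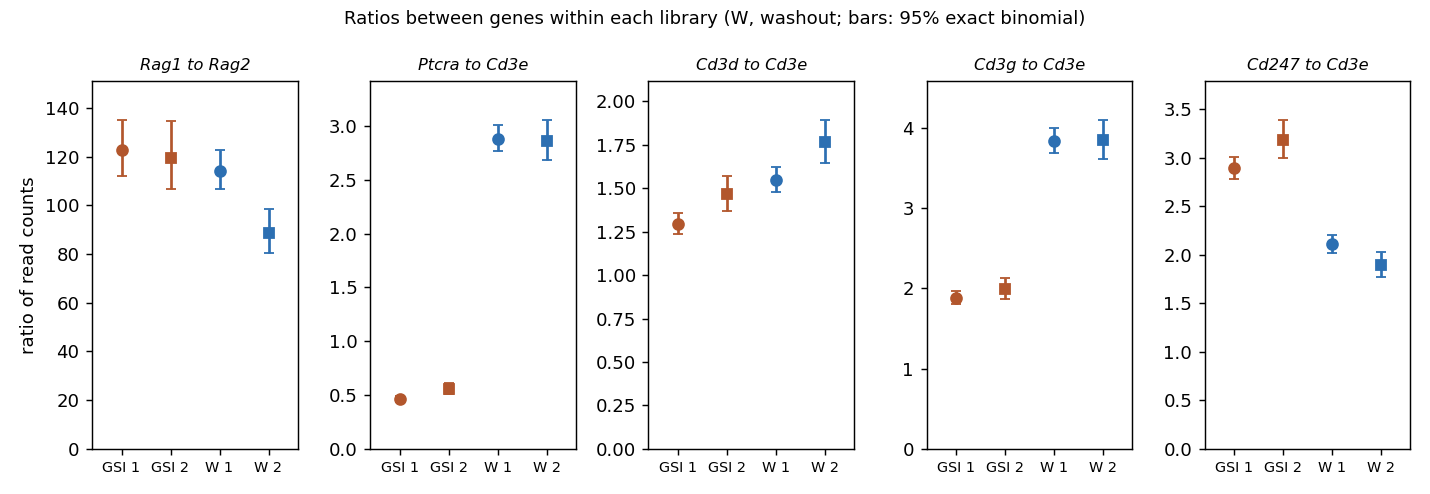
Ratio of the read counts of 2 genes within each library, with exact binomial 95% intervals, for GSI (orange) and washout (blue, W), each axis starting at 0. The Ptcra to Cd3e and Cd3g to Cd3e ratios are higher in both washout libraries, Cd247 to Cd3e is lower, and Rag1 to Rag2 is lowest in washout replicate 2.

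*Rag1* and *Rag2*, which encode the cutting and the accessory subunit of the recombinase, lie on chromosome 2 and are transcribed toward each other (*Rag1* from 101478439 to 101489658, minus strand, and *Rag2* from 101464875 to 101472685, plus strand), with 5753 bases between their ends. *Rag1* had 1764 and 2368 CPM under GSI, against 2766 and 2555 CPM upon washout. GSI replicate 1 stood lowest, and GSI replicate 2 was only 0.11 on the log2 scale under the nearer washout library. The log2 fold change was 0.37 (95% interval -0.08 to 0.81), with adjusted p = 0.139 by edgeR's quasi-likelihood test. Much of it came from GSI replicate 1, without which the value was 0.16, against 0.60 without GSI replicate 2. Scaled to the total count alone it was 0.17, and the groups overlapped. The adjusted p-value was below 0.05 with DESeq2 (0.0426) and without a filter on low counts (0.0121).

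*Rag2* had 14.4 and 19.8 CPM under GSI, against 24.2 and 28.8 CPM upon washout. Both washout libraries were higher, and the closest pair differed by 0.29 on the log2 scale, less than the 0.46 between the GSI libraries. It was 1.56-fold higher (log2 fold change 0.64 ± 0.19 SE, with adjusted p = 0.0297 by the same test). That call at the adjusted p-value alone was lost with the total count (0.44, adjusted p = 0.0859), with the GC and length correction (0.52, 0.125), without GSI replicate 1 (0.41, 0.157) and without washout replicate 2 (0.53, 0.0554). In both RAG genes GSI replicate 1 was the lowest of the 4 libraries.

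The subunits differed in level far more than in change. Per kilobase of exon, *Rag1* averaged 313 CPM in GSI and 403 upon washout, and *Rag2* 4.99 and 7.74 CPM. *Rag1* thereby ranked between 126 and 160 of 10962 genes in the 4 libraries, and *Rag2* between 5863 and 7820. In raw reads there were 123 and 120 on *Rag1* for each on *Rag2* in GSI and 114 and 88.7 upon washout. The intervals of the GSI libraries (112 to 135 and 106 to 135) overlapped that of washout replicate 1 (107 to 122), and washout replicate 2 (80.3 to 98.4) lay below. Both genes overlap *B230118H07Rik*, on the strand of *Rag1*, which shares 80 exon bases with *Rag1* and 208 with *Rag2*. *B230118H07Rik* itself had only 93 to 408 counts. Whether the counting left out reads in the shared bases was not tested.

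The stretch before the start of *Rag1* is shown for comparison with that of *Ptcra*. It holds 3 E-boxes, 1 TGGGAA at 52 to 47 bases before the start, and the Runx motif TGTGGT 2 times (1.27% of promoters hold it 2 or more times), the first time overlapping an E-box, while that of *Rag2* holds a single E-box and neither of the other motifs.
Rag1 (chr2:101649533-101649782, minus strand): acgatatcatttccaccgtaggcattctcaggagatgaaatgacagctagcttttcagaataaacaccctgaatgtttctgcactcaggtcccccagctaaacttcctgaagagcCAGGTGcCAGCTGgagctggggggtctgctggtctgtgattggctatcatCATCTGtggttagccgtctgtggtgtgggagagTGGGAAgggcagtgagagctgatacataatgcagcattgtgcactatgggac

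**Figure D4:**
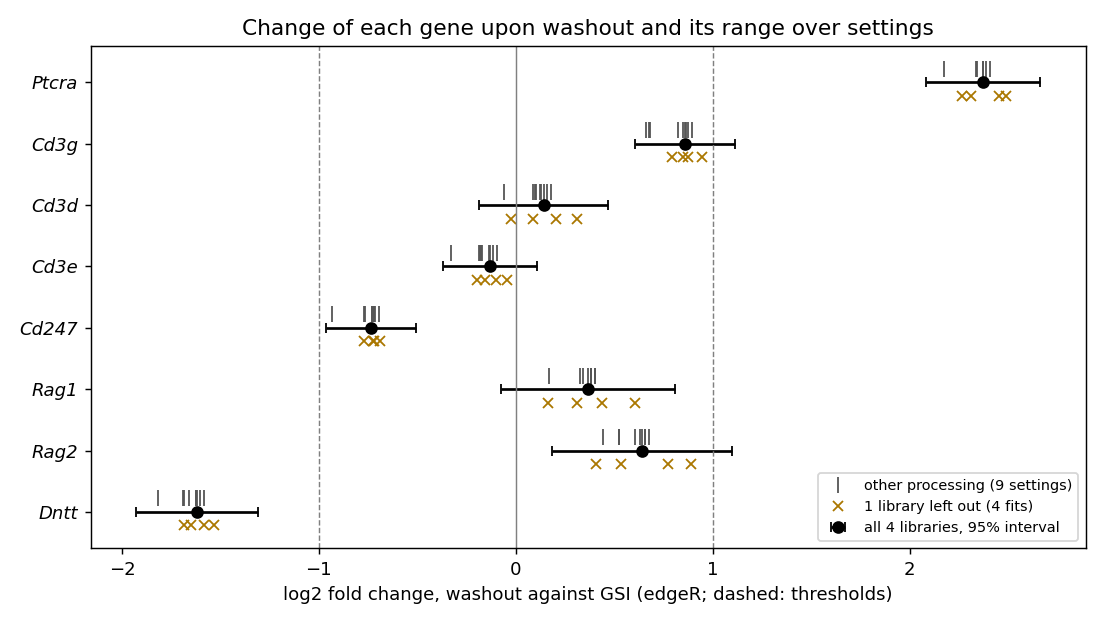
Log2 fold change upon washout of each gene with its 95% interval (black), the values under 9 other ways of processing (grey ticks) and the values with a library left out (crosses), with the thresholds dashed. Ptcra and Dntt lie past the thresholds in every setting, Cd3d crosses 0, and the crosses of Rag1 and Rag2 are the most spread.

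Other genes of receptor assembly and signaling were taken from lists of 59 genes in all, of which 53 could be tested. Of these, 3 were higher and 11 were lower past both thresholds, beside 7.74% and 11.7% of all genes. The same shares stand beside the counts of each list below. Of the 3 higher genes, *Hmgb2* and *Paxip1* lay close to the threshold. The count was 1 in 3 alternatives, among them total-count scaling, under which 17 were lower. After the correction for GC content and length, 2 were higher and 8 were lower. None of 14 symbols looked for at the receptor loci themselves, constant regions among them, was in the count table, so these loci were not analysed.

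Among partners of the recombinase and of terminal transferase, 2 of 7 were higher and none was lower, with a median log2 fold change of 0.58. *Hmgb2*, which bends DNA for RAG, rose from 239 and 206 to 491 and 411 CPM (log2 fold change 1.02, adjusted p = 0.00163). *Paxip1*, part of the break response, went from 49.8 and 66.0 to 112 and 125 CPM (1.03, adjusted p = 0.00231). *Hmgb2* fell under the fold threshold in 7 of 13 alternative fits, among them those without GSI replicate 2 (0.93) and without washout replicate 1 (0.89), and *Paxip1* in 5, among them those without GSI replicate 1 (0.83) and without washout replicate 2 (0.97). The lowest gene was *Trp53bp1*, at -0.13 (adjusted p = 0.283).

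End-joining factors had 2 of 8 lower and none higher, with a median of -0.14. *Dclre1c*, which encodes Artemis, the nuclease that opens the hairpins left by RAG, fell from 34.2 and 37.0 to 17.1 and 13.0 CPM (log2 fold change -1.22, adjusted p = 0.00152). *Polm*, a polymerase of the same family as terminal transferase, fell from 11.4 and 11.3 to 5.46 and 5.06 CPM (-1.10, adjusted p = 0.00316), and to -0.81 after correction for GC content and length. *Xrcc5*, which encodes Ku80, stood highest at 0.89 (adjusted p = 0.000718). Thus both subunits of Ku were above their GSI level (*Xrcc6* 0.54, adjusted p = 0.00962 by edgeR's quasi-likelihood test), each under the fold threshold. *Lig4*, also under it, went the other way (-0.85, adjusted p = 0.0119 by the same test). At the adjusted p-value alone, 2 of the 8 were higher and 3 were lower, beside 27.0% and 25.4% of all genes.

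**Figure D5:**
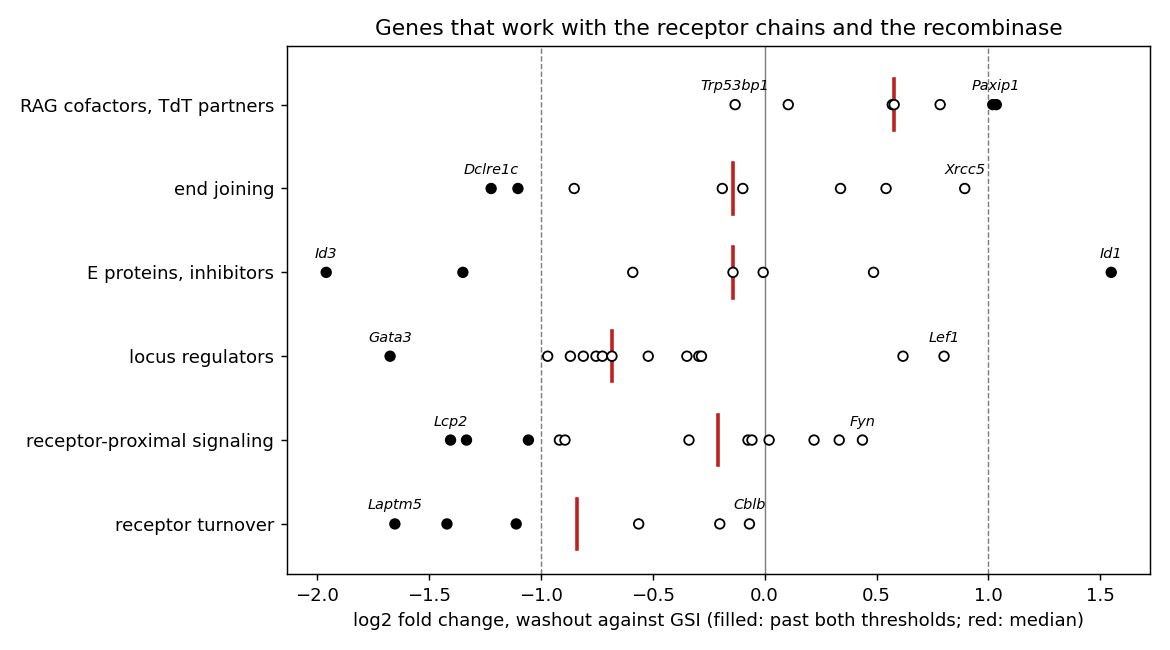
Log2 fold change upon washout of each tested gene in 6 lists of partners, filled where past both thresholds, with the median of each list in red. The highest and the lowest gene of each list are named, from Id3 at -1.96 to Id1 at 1.55.

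Of E proteins and their antagonists, 1 of 7 was higher and 2 were lower, with a median of -0.14. The E protein genes *Tcf3* (0.49, adjusted p = 0.0152), *Tcf4* (-0.01) and *Tcf12* (-0.14) were not past the fold threshold. The genes of their inhibitors went apart. *Id1* rose from 7.72 and 6.92 to 19.7 and 23.5 CPM (1.55, adjusted p = 0.000798), while *Id3* fell from 21.4 and 21.8 to 6.20 and 4.69 CPM (-1.96, adjusted p = 0.000564). *Id2*, the most abundant of them, went from 123 and 83.1 to 67.3 and 70.5 CPM (-0.59, adjusted p = 0.0365), under the fold threshold. *Lyl1*, a related factor, fell from 41 and 24 counts to 17 and 9 (-1.35, adjusted p = 0.0265), and its adjusted p-value was 0.149 with DESeq2, 0.0527 after correction for GC content and length, and 0.0562 to 0.21 with each of the 4 libraries left out in turn.

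Regulators known to act at the *Rag*, *Cd3* or receptor loci had 1 of 13 lower past both thresholds, none higher and a median of -0.68. At the adjusted p-value alone, 9 were lower and 2 higher, beside 25.4% and 27.0% of all genes. *Gata3* fell from 262 and 208 to 75.8 and 71.7 CPM (-1.67, adjusted p = 0.000438). *Ikzf1*, which encodes Ikaros, went from 762 and 662 to 384 and 343 CPM (-0.97, adjusted p = 0.0016), and *Lef1* stood highest at 0.80 (adjusted p = 0.00131).

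Kinases and adaptors next to the receptor had 3 of 12 lower and none higher, with a median of -0.21. The SLP-76 gene *Lcp2* fell from 141 and 130 to 48.7 and 54.0 CPM (-1.40, adjusted p = 0.000347). *Grap2*, at -1.05 (adjusted p = 0.000606), also fell, but was at -0.99 without GSI replicate 2 and -0.86 after correction for GC content and length. *Lck*, the kinase that phosphorylates the CD3 and ζ chains, was at 0.22 (adjusted p = 0.136), *Zap70* at -0.06 (0.708) and *Fyn*, the highest, at 0.44 (0.0109). With total-count scaling *Fyn* was at 0.24 (adjusted p = 0.0832 by edgeR's quasi-likelihood test). *Syk*, with at most 3 counts in each library, was not tested.

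Of 6 genes whose products dampen or remove receptor chains, 3 were lower and none higher, with a median of -0.84. *Laptm5*, a lysosomal protein that sends the ζ chain to degradation, fell from 656 and 610 to 202 and 201 CPM (-1.65, adjusted p = 0.000315). *Sla* fell from 822 and 655 to 309 and 244 CPM (-1.42, adjusted p = 0.00119) and *Lgals1* by 1.11 (adjusted p = 0.000789), while *Cblb* was at -0.07 (adjusted p = 0.696). RNA levels of these genes say nothing about the amount of receptor protein.

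Markers of other cells and stages moved as well. Of 13 T-cell progenitor markers, 1 was higher and 7 were lower past both thresholds, beside 7.74% and 11.7% of all genes. *Il2ra* rose from 1.44 and 1.51 to 12.4 and 14.6 CPM (log2 fold change 3.19, adjusted p = 0.000343 by edgeR's quasi-likelihood test). *Cd5*, *Kit*, *Cd28*, *Cd2*, *Cd8b1*, *Cd4* and *Cd27* fell, with log2 fold changes from -1.90 (*Cd5*) to -1.15 (*Cd27*, -0.96 without washout replicate 1). The summed level of 9 myeloid and mast cell markers was 229 and 119 CPM under GSI, against 22.4 and 15.0 CPM upon washout. That sum was carried by *Cpa3* (-4.30, and -5.83 to -3.62 with a library left out) and *Itgam* (-3.08), the 2 markers that fell past both thresholds, while *Cd68* was at 0.98 (adjusted p = 0.0112), *Lyz2*, *Ms4a2* and *Elane* had no reads and *Mpo* had at most 7 reads in any library. Among 7 NK markers the sum was 5.25 and 4.11 CPM against 3.38 and 3.05 CPM. *Nkg7* fell from 78 and 25 counts to 3 and 2 (log2 fold change -4.24, adjusted p = 0.00111 by the same test). Its washout counts are at or under the limit of detection, so the size of the fall is uncertain. *Tbx21* was at 0.26 (adjusted p = 0.442), and *Gzmb* and *Klrd1* had no reads. The part of these markers in the values of *Dntt* and *Cd247*, which fell with them, was not tested. In bulk RNA, fewer cells of a type and less RNA per cell cannot be told apart.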

How the data were processed

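The 4 Beko libraries (2 per condition) were prepared by a stranded, rRNA-depleting protocol. After trimming and alignment to mm9 with HISAT2 2.2.1 (introns up to 3000 bases), the authors deposited raw counts per gene from summarizeOverlaps with the iGenomes annotation. The strand setting and overlap mode are not given in the sources used here. Groups follow the treatment label.

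Washout was compared with GSI over all genes by edgeR 4.0.16 in R 4.3.3 (filterByExpr, TMM, estimateDisp, quasi-likelihood test without covariates) with Benjamini-Hochberg adjustment, and thresholds were those of the study. Standard errors were derived from the log2 fold change and its F statistic. Positions, exon lengths and GC content are from GENCODE vM1 (mm9), which matched 20641 symbols. The fit was tested on simulated data and recovered 174 of 199 genes changed by 1.5 on the log2 scale, with 5 false calls among 12160. The genes, lists and motifs were chosen with earlier results of these data known. Named are all 8 genes, the highest, the lowest and every called gene of each list, and the 3 nearest patterns to *Ptcra* and *Dntt*, except for an item that is not reported here. *Xrcc6*, *Lig4*, *Tcf3*, *Tcf4*, *Tcf12*, *Id2*, *Ikzf1*, *Lck*, *Zap70*, *Thy1*, *Cd44*, *Cd24a* and genes at or near 0 counts were named after their values were seen. Alternatives were RLE factors, total counts, DESeq2 1.42.0, other filters, thinning, a replicate block, a correction for GC content and length, the adjusted p-value alone and leaving out each library.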

Additional observations from a re-analysis of the deposited data

How the results depend on the processing

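Over 13 alternative fits, the 8 genes kept their direction and their call, past both thresholds together or not, in 102 of 104 values. At the adjusted p-value alone more calls changed, since *Rag2* lost it in 4 fits and *Rag1* and *Cd3e* gained it in 4 and 2. The 2 changes of direction were those of *Cd3d*, at -0.0589 with total-count scaling and, with a library left out, from -0.0247 (without washout replicate 2) to 0.312. At the adjusted p-value alone, counts were 3315 higher and 3120 lower for all genes, 3 and 2 for the 8 genes, and 11 and 25 for the partner lists. With the total count, 586 of all genes and 1 partner gene were higher and 17 partner genes lower. A minimum of 10 counts in every library, or thinning to the smallest library, also left 1 partner gene higher. The correction for GC content and length left 2 partner genes higher and 8 lower. After the correction for GC content and length, *Trp53bp1* reversed to 0.21 (0.21 with the block too), and *Cblb* ranged from -0.2532 to 0.1073 with a library left out, reversing without washout replicate 2. The cause was not tested. Where a library was omitted, the remaining one of that condition is assumed to vary like the others.

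Replicate numbers are shared by the conditions but the labels tie them to no batch. With the replicate number as a block, 981 genes were higher and 1576 lower, with 1 and 1 of the 8 genes and 3 and 11 partner genes, and the deviations of same-numbered libraries correlated at 0.497 over genes, which with 2 pairs does not show a pairing. The adjusted p-value of *Rag1* was 0.0129 with the block, and with the block and the GC and length correction those of *Rag1* and *Cd3e* were 0.00264 and 0.0296. Replicate 1 was the deeper library in both conditions.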

Other observations

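Genes of the counterpart of the pre-TCR in B-cell precursors had few reads in all libraries. Of 9 genes of that list in the table, 4 had 3 counts or fewer in every library, among them *Igll1*, *Pax5* and *Ebf1*. *Vpreb1* had 12 and 8 counts under GSI, against 5 and 4 upon washout, and *Cd79a* had 14 and 6 against 10 and 3. The sum of the list was 1.69 and 2.26 CPM under GSI, against 0.617 and 0.893 CPM upon washout. *Vpreb3* was the one gene tested, with 16 and 7 counts against 1 and 2 (log2 fold change -2.82, with adjusted p = 0.0201 by edgeR's quasi-likelihood test, but 0.156 with DESeq2 and 0.0638 without GSI replicate 2). Of other adaptor chains that signal like CD3, *Fcer1g* had 4 to 19 counts and was not tested. *Tyrobp* had 14 and 12 counts against 4 and 2 (-2.16, adjusted p = 0.027 by the same test, but 0.151 with DESeq2). With a library left out, its value ranged from -2.64 to -1.73. *Hcst* was at -0.99 (adjusted p = 0.0163 by the same test). It was at -1.19 with the total count, past the fold threshold, and ranged from -1.14 to -0.84 with a library left out.

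The patterns most like that of *Ptcra* over the 4 libraries, by Euclidean distance of centered log2 CPM among 9198 genes, were those of *Nefh* (distance 0.104), *Itga9* (0.132) and *Heyl* (0.144), with log2 fold changes of 2.36, 2.31 and 2.36. Nearest to *Dntt* were *Inpp5d* (0.0469), *Sp100* (0.074) and *Hvcn1* (0.0808), at -1.64, -1.67 and -1.58. These distances are over 4 libraries and describe likeness only.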
